A study of Mus musculus with 8 samples.

Results

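The dual-specificity MAP kinase phosphatases studied here were 10 genes, Dusp1, Dusp2, Dusp4, Dusp5, Dusp6, Dusp7, Dusp8, Dusp10, Dusp14 and Dusp16. They were read through every probe set whose single gene symbol in the platform annotation is one of these names, which gave 16 of the 45037 probe sets tested. All 10 genes were measured, 4 of them by more than 1 probe set, and no probe set was dropped for a low level. These enzymes remove phosphate from both the threonine and the tyrosine of the activation loop of MAP kinases, which switches the kinase off. The inducible nuclear members Dusp1, Dusp2, Dusp4 and Dusp5 are classical immediate early genes, Dusp6 and Dusp7 are cytoplasmic and prefer ERK, and Dusp8, Dusp10 and Dusp16 prefer the stress kinases JNK and p38. Dusp1 is a textbook glucocorticoid target and acts to limit JNK and p38 signalling, while ERK activity itself raises transcription of Dusp4, Dusp5 and Dusp6 as a negative feedback.

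RNA was measured on 8 arrays of the mouse mammary line 7438, 2 in each of 4 groups. The groups were dexamethasone at 100 nM (Dex, a synthetic glucocorticoid), estradiol at 100 nM (E2), both hormones at 100 nM each (Dex+E2), and cells given no hormone (Untreated), with treatment for 2 hours. All groups, Untreated cells included, carried a glucocorticoid receptor fused to green fluorescent protein and an estrogen receptor fused to the red protein Cherry. Both were driven by a tetracycline-regulated promoter and switched on by removing tetracycline 24 hours before hormone. Cells of every group were kept for 48 hours in charcoal-stripped 10% serum. Every value therefore describes cells with introduced receptors of one line. Whether replicate arrays were made from independent cultures is not stated. A p-value here sets a difference of group means against the spread between replicate arrays, and that spread may be technical. For 2 arrays, E2 replicate 2 and Dex+E2 replicate 1, a description field names chromatin immunoprecipitation, but the titles and treatment labels list both as expression arrays.

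Levels are log2 signals after robust multi-array averaging. A probe set whose mean over the 8 arrays lay below the median of all probe sets, 5.63, is called dim. Array medians ran from 5.58 to 5.66, and replicate arrays correlated at 0.998 for Dex, 0.998 for E2, 0.996 for Dex+E2 and 0.998 for Untreated. The SD of the difference between replicate arrays was largest for Dex+E2, 0.212, beside 0.14 for Dex, 0.166 for E2 and 0.161 for Untreated. All 10 mesenchymal markers measured lay above the dim limit, and their summed linear signal was 45100 to 48360 over the arrays. The 10 epithelial markers, of which 4 were dim, summed to 716 to 807, the 8 immune markers to 378 to 410 and the 6 endothelial and adipose markers to 160 to 205. The other 6 epithelial markers were not dim. Of the immune markers 4 were dim, and of the endothelial and adipose markers 5, so lying above the limit does not show expression. These sums run over different probe sets and set no order between the lists. A lower signal in such bulk RNA cannot separate fewer cells of a type from less RNA per cell.

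After 2 hours of Dex, 4 of the 10 phosphatase genes passed the test against Untreated, Dusp1 upward and Dusp4, Dusp8 and Dusp10 downward. Of all 18193 genes measured, 1.55% passed with Dex by at least 1 probe set. The 10 genes were chosen with earlier results of these data known, so this share is a background and no test of the set. With E2 alone 0 of the 10 passed, where 0.0824% of all genes passed, and nothing is read from a count of 0 beside such a share. Dex+E2 again raised Dusp1 and lowered Dusp4, Dusp8 and Dusp10, 4 of 10 where 1.4% of all genes passed. Dusp8 passed on 1418714_at alone, while its probe sets 1428864_at and 1447346_s_at had differences of -0.12 and 0.14 with Dex. Dusp10 passed on 1417164_at alone. Without Untreated replicate 2, Dex replicate 1 or Dex replicate 2, 2 of the 10 passed with Dex, Dusp1 and Dusp4, and without Untreated replicate 2 the same 2 passed with Dex+E2. By probe set, 1 of 16 was higher and 3 were lower with Dex, where 0.924% of all probe sets passed in either direction (0.575% higher and 0.349% lower), counted with limma at a Benjamini-Hochberg adjusted p under 0.05 over all probe sets. An unadjusted p under 0.05 was reached by 8 of the 16. With E2, 0 of 16 passed, where 0.0355% of all probe sets did. There, 3 of 16 had an unadjusted p under 0.05, as did 2439 of all probe sets. With Dex+E2, 1 was higher and 3 were lower, where 0.844% of all probe sets passed, 0.471% higher and 0.373% lower. There, 6 of 16 had an unadjusted p under 0.05, as did 3676 of all probe sets.

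**Figure D1:**
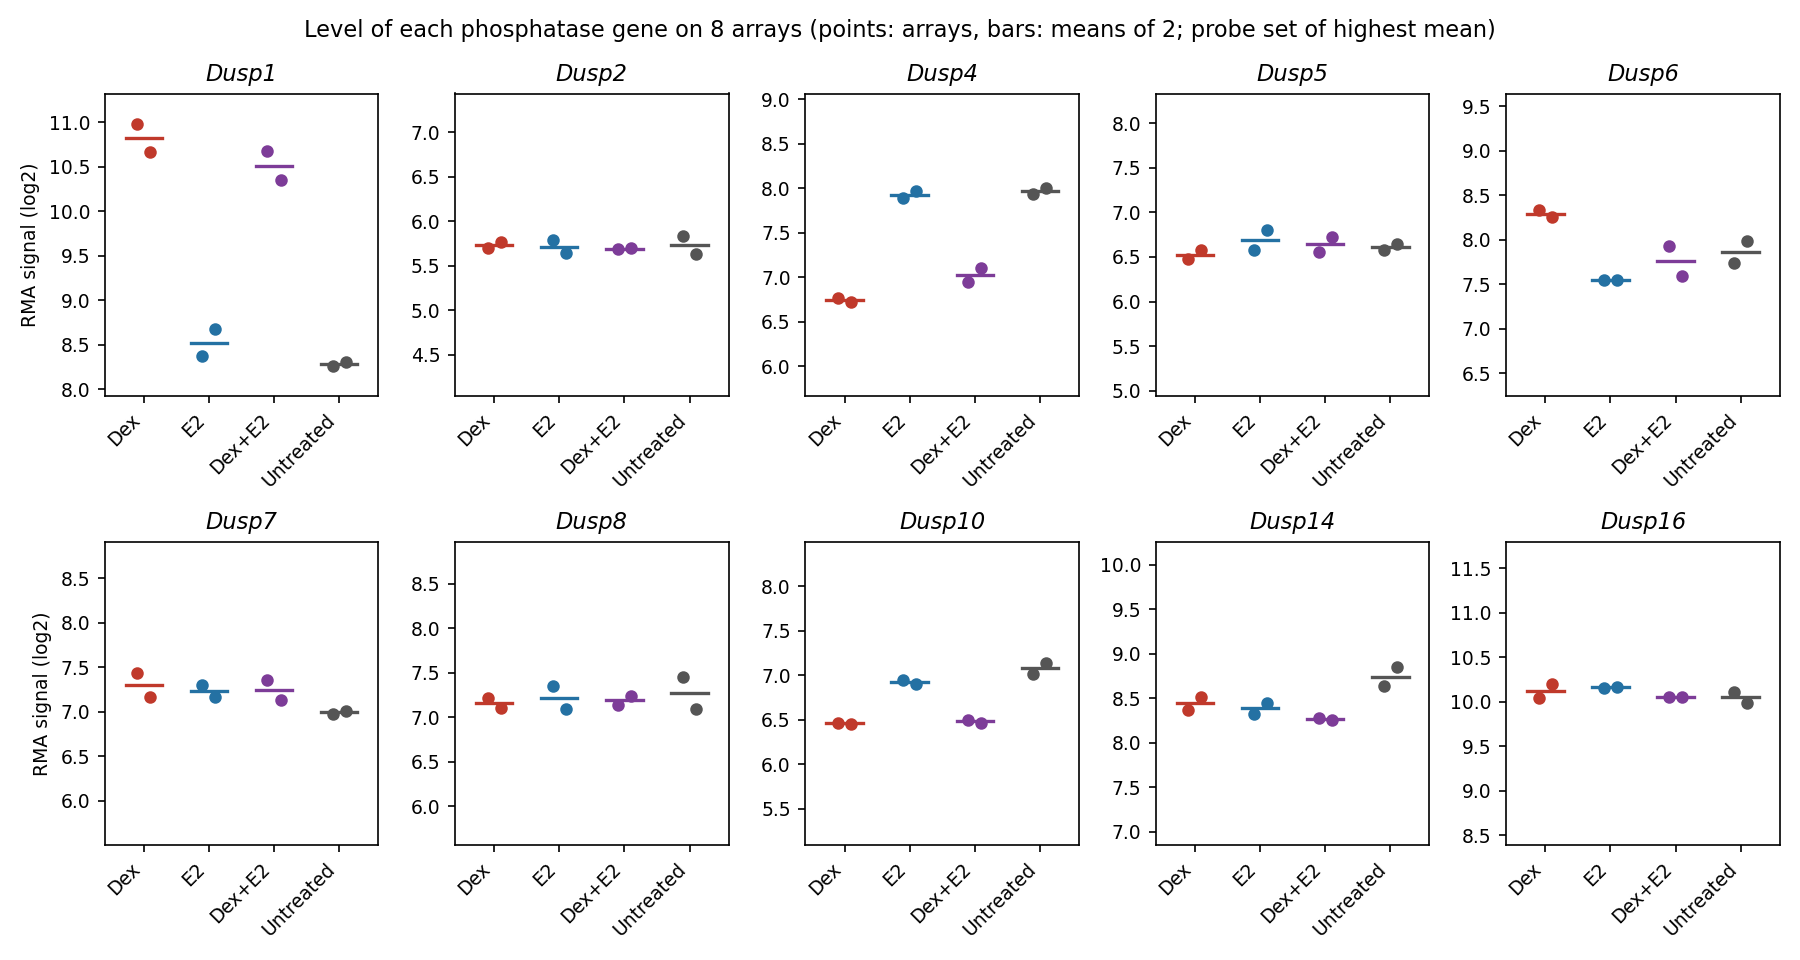
Log2 signal (vertical axis) of the probe set of highest mean for each phosphatase gene on the 8 arrays (for Dusp8 this is 1428864_at, not the probe set that passed), with Dex, E2 and Dex+E2 left of Untreated. Points are arrays and bars are group means. Dusp1 is higher, and Dusp4 lower, on all 4 arrays given Dex than on the 4 without it.

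Among the inducible nuclear phosphatases, Dusp1, which inactivates p38, JNK and ERK, had the largest difference of the 16 probe sets with Dex. Its 250 bases before the RefSeq start (mouse build GRCm38.p6, chr17:26508473-26508722, minus strand) are shown because Dusp1 was the one gene of the set that rose, with the cAMP response element TGACGTCA in capitals at position -143 from the start.
Dusp1: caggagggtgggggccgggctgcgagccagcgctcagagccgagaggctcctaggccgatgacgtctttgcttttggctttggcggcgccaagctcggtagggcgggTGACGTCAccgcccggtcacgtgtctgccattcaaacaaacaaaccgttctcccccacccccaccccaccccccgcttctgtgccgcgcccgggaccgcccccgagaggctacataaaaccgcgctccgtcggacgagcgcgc
On probe set 1448830_at, Dusp1 in Dex cells had log2 signals of 10.98 and 10.66, in E2 cells 8.38 and 8.67, in Dex+E2 cells 10.67 and 10.35, and in Untreated cells 8.26 and 8.30. The 4 arrays given Dex lay above every array without it and did not overlap them, and all 6 treated arrays lay above both Untreated arrays. The Dex minus Untreated difference was 2.54 ± 0.144 (SE), a 5.82-fold rise with an adjusted p of 2.24e-05. Dex+E2 raised it by 2.23 over Untreated, 4.68-fold, with an adjusted p of 6.64e-05. E2 alone gave 0.24 over Untreated with a 95% interval of -0.08 to 0.56 and an adjusted p of 0.942.

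Dusp4, a nuclear phosphatase that acts on ERK and JNK, had its highest group mean in Untreated cells. Its log2 signals on 1428834_at were 6.77 and 6.73 in Dex cells, 7.89 and 7.97 in E2 cells, 6.94 and 7.10 in Dex+E2 cells, and 7.94 and 8.003 in Untreated cells. The 4 arrays given Dex did not overlap the 4 without it, and E2 overlapped Untreated. Dusp4 fell with Dex by 1.22 ± 0.0905 log2 units, to a fold of 0.429, with an adjusted p of 0.000105. With Dex+E2 it fell by 0.95 log2 units relative to Untreated, with an adjusted p of 0.000613. With E2 the difference was -0.04, with a 95% interval of -0.24 to 0.16. Dusp4 fell where Dusp1 rose, with the same 2 treatments.

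The other inducible nuclear genes showed no such differences. Dusp2, a phosphatase best known from activated lymphocytes, had on 1450698_at 5.71 and 5.77 in Dex cells, 5.79 and 5.65 in E2 cells, 5.69 and 5.70 in Dex+E2 cells, and 5.84 and 5.64 in Untreated cells, just above the dim limit. Dusp5, which binds and inactivates ERK in the nucleus, had on 1437199_at 6.47 and 6.57 in Dex cells, 6.58 and 6.80 in E2 cells, 6.55 and 6.73 in Dex+E2 cells, and 6.57 and 6.65 in Untreated cells. The 4 group means of Dusp2 spanned 0.04 log2 units and those of Dusp5 0.16, and neither gene passed the test in any of the 9 comparisons.

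Of the cytoplasmic ERK phosphatases in the set, Dusp6 is the feedback inhibitor of ERK. Its log2 signals on 1415834_at were 8.34 and 8.25 in Dex cells, 7.55 and 7.55 in E2 cells, 7.93 and 7.60 in Dex+E2 cells, and 7.74 and 7.99 in Untreated cells. Both Dex arrays lay above all the others and both E2 arrays below all the others. Neither hormone alone passed against Untreated: the Dex difference was 0.43 ± 0.122, with an adjusted p of 0.291, and the E2 difference was -0.31, with an adjusted p of 0.886. The direct comparison of the 2 hormones did pass, with Dusp6 lower in E2 than in Dex cells at a log2 difference of -0.74 and an adjusted p of 0.0229. That call was lost when any 1 of the 4 arrays compared was left out, with differences of -0.70 without Dex replicate 1 (adjusted p 0.313), -0.79 without Dex replicate 2 (0.169), -0.74 without E2 replicate 1 (0.143) and -0.75 without E2 replicate 2 (0.176).

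When E2 was added to Dex, Dusp6 had a difference of -0.53 in Dex+E2 against Dex, with an unadjusted p of 0.00135 and an adjusted p of 0.641. Its mean E2 effect over both states of Dex was -0.42 ± 0.0866, with an adjusted p of 0.236. The mean Dex effect over both states of E2 was 0.32, with an adjusted p of 0.156. All of these Dusp6 values are short of the threshold over 45037 probe sets.

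Dusp7, the second cytoplasmic ERK phosphatase, was read by 3 probe sets. On probe set 1452097_a_at it had 7.43 and 7.16 in Dex cells, 7.30 and 7.17 in E2 cells, 7.36 and 7.13 in Dex+E2 cells, and 6.98 and 7.01 in Untreated cells. Probe set 1427416_x_at, whose suffix marks probes that can read other transcripts, had 7.28 and 6.99 in Dex cells, 7.18 and 6.93 in E2 cells, 7.29 and 6.96 in Dex+E2 cells, and 6.84 and 6.66 in Untreated cells. On both, all 6 treated arrays lay above both Untreated arrays, by 0.30 and 0.39 in the Dex group means, and neither passed (adjusted p 0.676 and 0.645). The dim 1460393_a_at had a Dex difference of 0.12 and overlapped between the groups.

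The JNK and p38 phosphatases gave a mixed reading. Dusp8 was read by 3 probe sets that disagreed. On 1418714_at its log2 signals were 7.11 and 6.87 in Dex cells, 7.47 and 7.23 in E2 cells, 6.90 and 6.51 in Dex+E2 cells, and 7.68 and 7.72 in Untreated cells, so that all 6 treated arrays lay below both Untreated arrays. This probe set fell with Dex by 0.71 ± 0.14 log2 units (adjusted p 0.0461) and with Dex+E2 by 0.99 log2 units (adjusted p 0.00674), while E2 alone had a difference of -0.35 (adjusted p 0.894). The other Dusp8 probe sets, neither of them dim, had Dex differences of -0.12 on 1428864_at and 0.14 on 1447346_s_at and Dex+E2 differences of -0.08 and 0.11, and passed in no comparison. Which transcripts of Dusp8 each probe set reads was not tested, and with the 3 probe sets averaged Dusp8 did not pass.

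The Dusp8 call was also the least stable of the 4 with Dex. Its difference without 1 array lay between -0.83 and -0.59, and it did not pass without Untreated replicate 1 (adjusted p 0.294), Untreated replicate 2 (0.393), Dex replicate 1 (0.145), Dex replicate 2 (0.488), or either E2 array (0.0546 each). With Dex+E2 it was lost without Untreated replicate 1 (0.0847) or Untreated replicate 2 (0.106).

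Dusp10, which inactivates JNK and p38 in the cytoplasm and nucleus, was lower in every array given Dex on 1 of its probe sets. On 1417164_at it had 6.47 and 6.45 in Dex cells, 6.95 and 6.90 in E2 cells, 6.50 and 6.46 in Dex+E2 cells, and 7.01 and 7.14 in Untreated cells. The 4 arrays given Dex lay below the 4 without it, and all 6 treated arrays lay below both Untreated arrays. It fell with Dex by 0.62 ± 0.0861 log2 units (adjusted p 0.00573) and with Dex+E2 by 0.60 log2 units (adjusted p 0.008), while E2 had a difference of -0.15 (adjusted p 0.939). The Dex call was lost without Dex replicate 1 (-0.62, adjusted p 0.0859), Dex replicate 2 (-0.61, 0.0803) or Untreated replicate 2 (-0.55, 0.0923), and the Dex+E2 call without Untreated replicate 2 (-0.53, 0.122). Its other probe set, 1417163_at, was dim, with a Dex difference of -0.10 that did not pass. With both probe sets averaged, the Dusp10 difference was -0.36 with Dex (adjusted p 0.035) and -0.31 with Dex+E2 (0.0799).

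**Figure D2:**
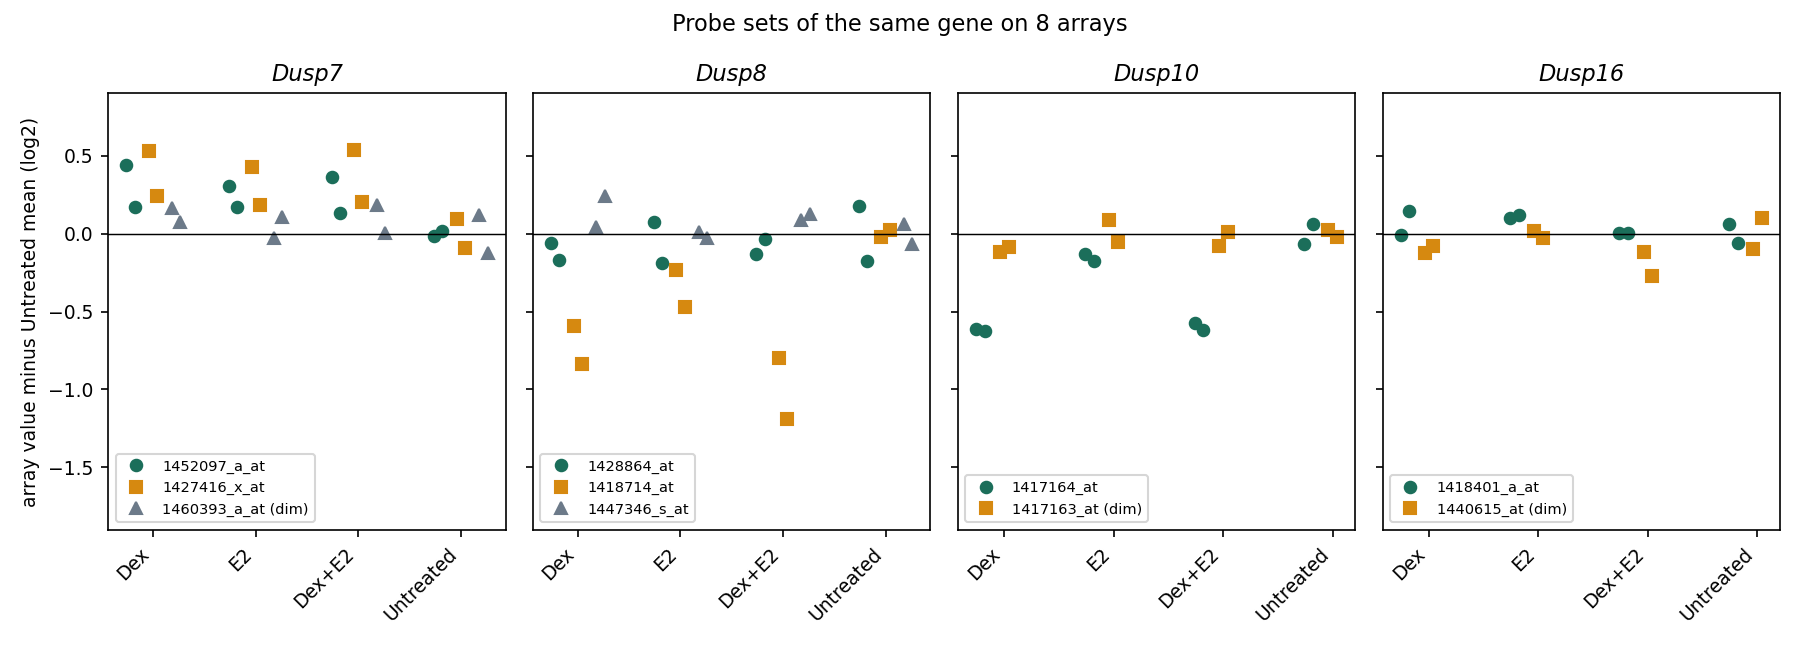
Log2 difference from the mean of the Untreated arrays (vertical axis) on each array for the genes read by more than 1 probe set, with dim probe sets marked. Dusp8 1418714_at lies below 0 on all 6 treated arrays while its other probe sets scatter around 0, and both brighter Dusp7 probe sets lie above 0 on the 6 treated arrays.

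The window before the start of Dusp10 (GRCm38.p6, chr1:184034131-184034380, plus strand) is given to set a gene that fell beside Dusp1. It holds none of the motifs searched and so has no capitals.
Dusp10: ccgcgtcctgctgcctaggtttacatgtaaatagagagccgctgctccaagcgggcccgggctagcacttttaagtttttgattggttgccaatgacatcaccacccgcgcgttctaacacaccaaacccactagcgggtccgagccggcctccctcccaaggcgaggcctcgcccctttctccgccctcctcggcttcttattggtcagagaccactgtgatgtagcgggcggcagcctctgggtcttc
In the window of Dusp8, TGACGTCA stands at -107 and -63 and the estrogen receptor half-site AGGTCA, on the opposite strand, at -36. The RefSeq table had windows for 9 of the 10 members, each covering 250 bases before the start and 50 after it, and the windows of Dusp8, Dusp14 and Dusp16 lie wholly inside the annotated spans of their genes, and part of the upstream bases of Dusp7 does too. On either strand, TGACGTCA was found in 2 of these 9 windows, Dusp1 and Dusp8, and in 1.79% of all 32851 windows. AGGTCA was found in 2 of the 9, Dusp8 and Dusp16, and in 16.3% of all windows. The full glucocorticoid response element, an inverted repeat of AGAACA with 3 bases between (in 0.00913% of all windows), its half-site AGAACA alone (19.0%), the full estrogen response element, an inverted repeat of AGGTCA with 3 bases between (0.0213%), the AP-1 site TGANTCA (7.81%) and the TATA box TATAAA (13.6%) were in none of the 9. AGAACA and AGGTCA were also counted where they form part of their full elements. A match is a string of letters, and an absent match says only that the letters are not in these windows.

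Dusp16 is the third phosphatase that prefers JNK and p38. On 1418401_a_at it had 10.04 and 10.20 in Dex cells, 10.15 and 10.17 in E2 cells, 10.05 and 10.05 in Dex+E2 cells, and 10.11 and 9.99 in Untreated cells. Both E2 arrays lay above both Untreated arrays, the Dex and Dex+E2 arrays overlapped the Untreated range, and the group means spanned 0.11 log2 units. The dim 1440615_at lay between 3.89 and 4.18 on the treated arrays and had 4.07 and 4.27 in Untreated cells.

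Dusp14, a small phosphatase that lacks the MAP kinase binding domain, had on 1431422_a_at 8.37 and 8.52 in Dex cells, 8.32 and 8.45 in E2 cells, 8.28 and 8.26 in Dex+E2 cells, and 8.63 and 8.85 in Untreated cells. Every treated array lay below both Untreated arrays. The differences from Untreated were -0.30 ± 0.103 with Dex (adjusted p 0.552), -0.36 with E2 (0.691) and -0.47 with Dex+E2 (0.0879), so none passed. Over the whole set, 6 of the 16 probe sets, from 5 genes, had all 6 treated arrays on one side of both Untreated arrays, 3 above and 3 below, where 7.29% of all probe sets did so, 3.3% above and 3.99% below. These arrays share the same 2 Untreated arrays, and the set was chosen with earlier results known, so the shares do not test the set.

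**Figure D3:**
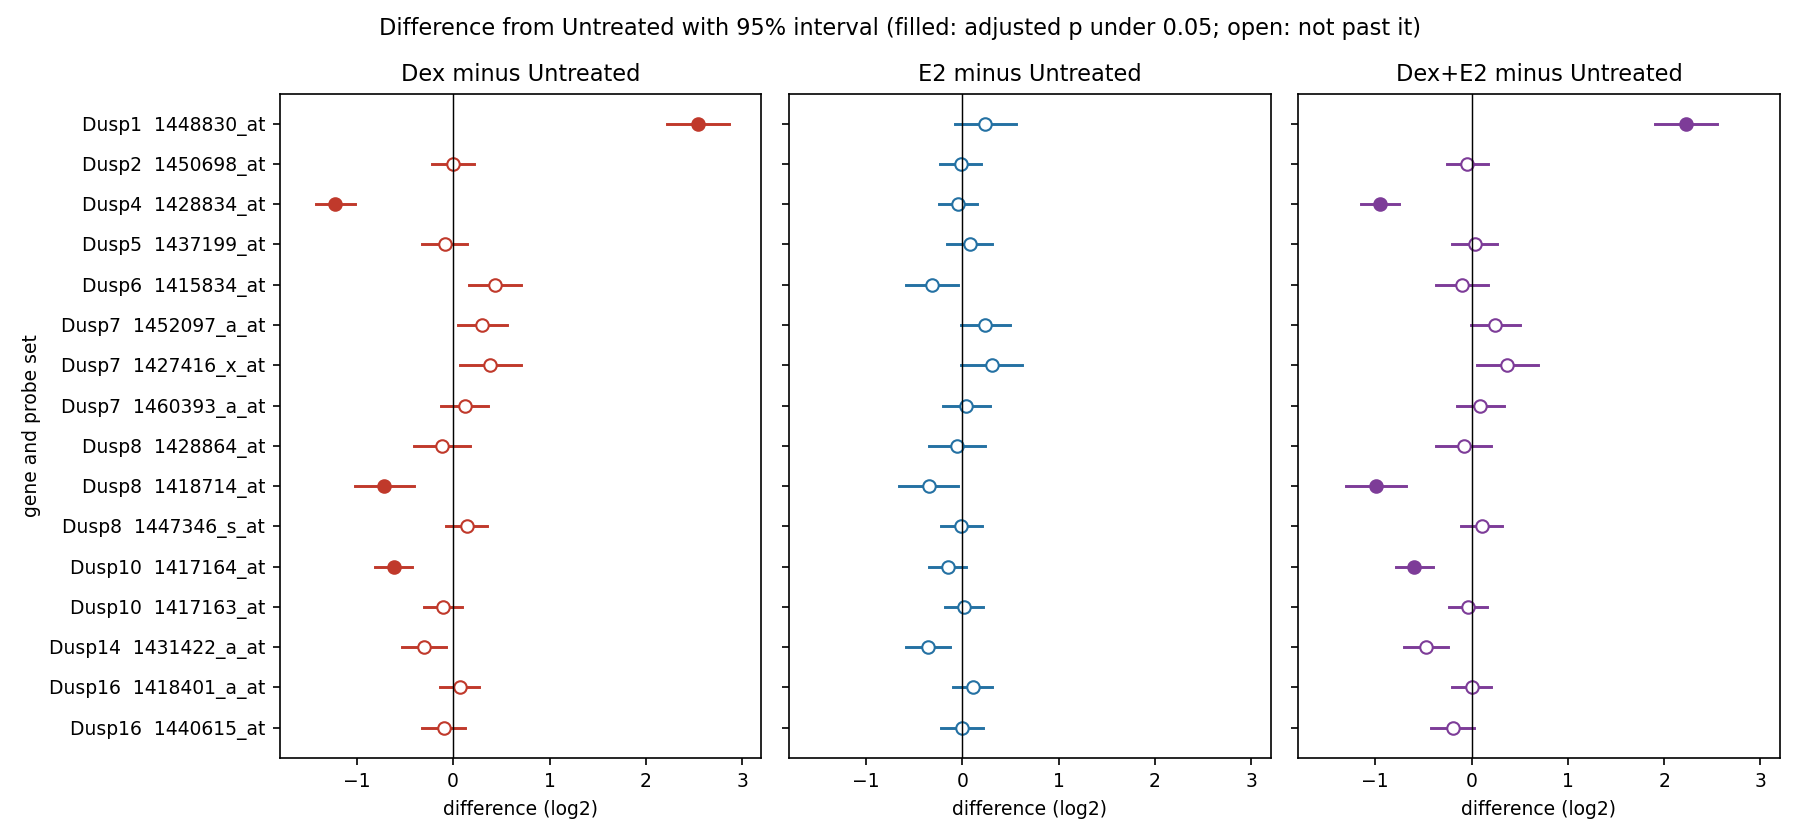
Log2 difference from Untreated (horizontal axis) of each of the 16 probe sets with Dex, E2 and Dex+E2, with 95% confidence intervals from limma and filled points at an adjusted p under 0.05. Filled points appear for Dusp1, Dusp4, Dusp8 1418714_at and Dusp10 1417164_at with Dex and with Dex+E2, and for none with E2.

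As a list, the 16 probe sets held both directions. The median difference of the 16 was -0.04 with Dex, -0.008 with E2 and -0.04 with Dex+E2, beside 0.0014, -0.01 and 0.0035 over all probe sets. The median absolute difference was 0.22 with Dex, 0.09 with E2 and 0.15 with Dex+E2, beside 0.07, 0.08 and 0.08 over all probe sets. The 3 dim members are among these 16.

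For E2 added to Dex, 0 of 16 passed in Dex+E2 against Dex, where 0.00666% of all probe sets did. With such a share, nothing is read from this 0. An unadjusted p under 0.05 was reached by 2 of 16, and by 2098 of all probe sets. For Dusp1 the Dex+E2 minus Dex difference was -0.31 with a 95% interval of -0.63 to 0.01, and for Dusp4 it was 0.27 with an interval of 0.07 to 0.47 (adjusted p 0.996 for both). The Dex by E2 interaction (Dex+E2 over E2, less Dex over Untreated) was -0.55 for Dusp1 (interval -1.01 to -0.10) and 0.32 for Dusp4. Both had unadjusted p-values under 0.05 (0.0216 and 0.0323) and an adjusted p of 0.881, and 0 of 16 members passed, where 0.00222% of all probe sets did. The point values for both genes were a smaller Dex effect with E2 present, and the data do not separate them from no difference after adjustment.

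For Dex added to E2, 2 member genes passed. In Dex+E2 against E2, 1 member probe set was higher and 1 lower, where 0.335% of all probe sets passed. Dusp1 rose by 1.99 log2 units, 3.96-fold (adjusted p 0.000933), and Dusp4 fell by 0.91 log2 units (adjusted p 0.00281). Dusp8 1418714_at had -0.64 (0.124) and Dusp10 1417164_at -0.44 (0.0812), short of the threshold. The Dusp4 call was lost when only the arrays of those groups were fitted (adjusted p 0.0729). Without Dex+E2 replicate 1, 4 member genes passed in place of 2, and 1974 of all probe sets passed in place of 151.

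In E2 against Dex, 2 member probe sets were higher and 2 lower, where 0.675% of all probe sets passed. Dusp1 was lower in E2 cells, with a difference of -2.30 (adjusted p 0.000157), and Dusp4 higher by 1.18 (0.000284). Beside Dusp6, described above, Dusp10 1417164_at was higher in E2 cells by 0.47 (0.0428), or 0.29 with both probe sets averaged (0.124), a call that was lost in 11 of 16 alternative fits, with an adjusted p of up to 0.394 without Dex replicate 1. It was also lost without Dex replicate 2 (0.327), E2 replicate 1 (0.256), E2 replicate 2 (0.244) or either Untreated array (0.0745 each). Without any 1 of the Dex or E2 arrays, 2 member genes passed, Dusp1 and Dusp4.

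Averaged over both states of E2, Dex gave 1 member probe set higher and 3 lower, where 1.37% of all probe sets passed. These were Dusp1 with 2.26 (adjusted p 4.26e-06), Dusp4 with -1.06 (1.76e-05), Dusp8 1418714_at with -0.68 (0.00568) and Dusp10 1417164_at with -0.53 (0.00115), or -0.30 with both of its probe sets averaged. Averaged over both states of Dex, E2 gave 0 of 16, where 0.0533% of all probe sets passed. For this mean E2 effect, 3 of 16 members had an unadjusted p under 0.05, as did 1907 of all probe sets. Without Dex+E2 replicate 1, 1 member passed there, Dusp6, and 71 of all probe sets passed in place of 24.

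By group means, Dusp1 was ordered Dex, Dex+E2, E2, Untreated from high to low, and Dusp4 had exactly the reverse order. In both, the step between Dex+E2 and E2 was the one step between neighbours that passed the test. Dusp10 1417164_at had the Dusp4 order and Dusp8 1418714_at had Untreated, E2, Dex, Dex+E2, with no neighbouring step past the threshold in either. Dusp6 was ordered Dex, Untreated, Dex+E2, E2, again with no neighbouring step past the threshold.

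For each member that passed against Untreated, the genes with the most alike profile were taken as the smallest mean absolute log2 difference over the 6 treated arrays, after subtracting each probe set's Untreated mean, among 11290 genes. Beside Dusp1 these were Suox (0.173), Ccn2 (0.244) and Rgs2 (0.331), with Dex, E2 and Dex+E2 differences of 2.52, 0.67 and 2.27 for Suox. Beside Dusp4 they were Csf1 (0.146), Snai2 (0.165) and Smad6 (0.191). Beside Dusp8 1418714_at they were Cdc42ep3 (0.0735), Ier5 (0.0743) and Angptl4 (0.0825), and beside Dusp10 1417164_at they were Bdnf (0.043), Hes1 (0.0539) and Fzd7 (0.0576). The likeness is a description over 6 arrays.

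The rest of the MAP kinase pathway was given by 8 lists with 92 genes, of which 83 were measured, each by its probe set of highest mean level. Against Untreated, 2 of the 83 were higher and 1 was lower with Dex, where 1.55% of all genes passed by at least 1 of their probe sets, a wider rule than 1 probe set a gene. With E2, 0 passed, where 0.0824% of all genes did, and with Dex+E2, 2 were higher and 1 was lower, where 1.4% did. The median difference over the 83 was 0.02 with Dex, -9e-04 with E2 and 0.0082 with Dex+E2. None of the 16 other dual-specificity phosphatases, 12 MAP kinases, 6 MAP2 kinases, 16 MAP3 kinases and 10 scaffolds measured passed against Untreated with any treatment. With such shares over all genes, nothing is read from these counts of 0.

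Ppm1d, Mknk2 and Phlda1 passed both with Dex and with Dex+E2. The gene Ppm1d, a serine and threonine phosphatase that dephosphorylates p38, rose by 1.15 ± 0.126 with Dex (adjusted p 0.00106) and by 0.92 with Dex+E2 (0.00576), and had 0.11 with E2. Its Dex+E2 call was lost without Untreated replicate 2 (0.83, adjusted p 0.105). Mknk2, a kinase activated by ERK and p38, rose by 0.61 ± 0.105 with Dex (0.0207) and by 0.69 with Dex+E2 (0.0114), and had 0.39 with E2 (0.584). The Mknk2 call with Dex was lost without Untreated replicate 1 (0.104), Untreated replicate 2 (0.259), Dex replicate 1 (0.308) or Dex replicate 2 (0.0903), and that with Dex+E2 without Untreated replicate 1 (0.0714), Untreated replicate 2 (0.177) or Dex+E2 replicate 2 (0.068). Phlda1, an ERK-induced gene, fell by 1.71 ± 0.0991 with Dex (2.37e-05) and by 1.82 with Dex+E2 (3.4e-05), and had -0.57 with E2 (0.164). The other 7 of the 8 ERK output genes did not pass with any treatment.

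**Figure D4:**
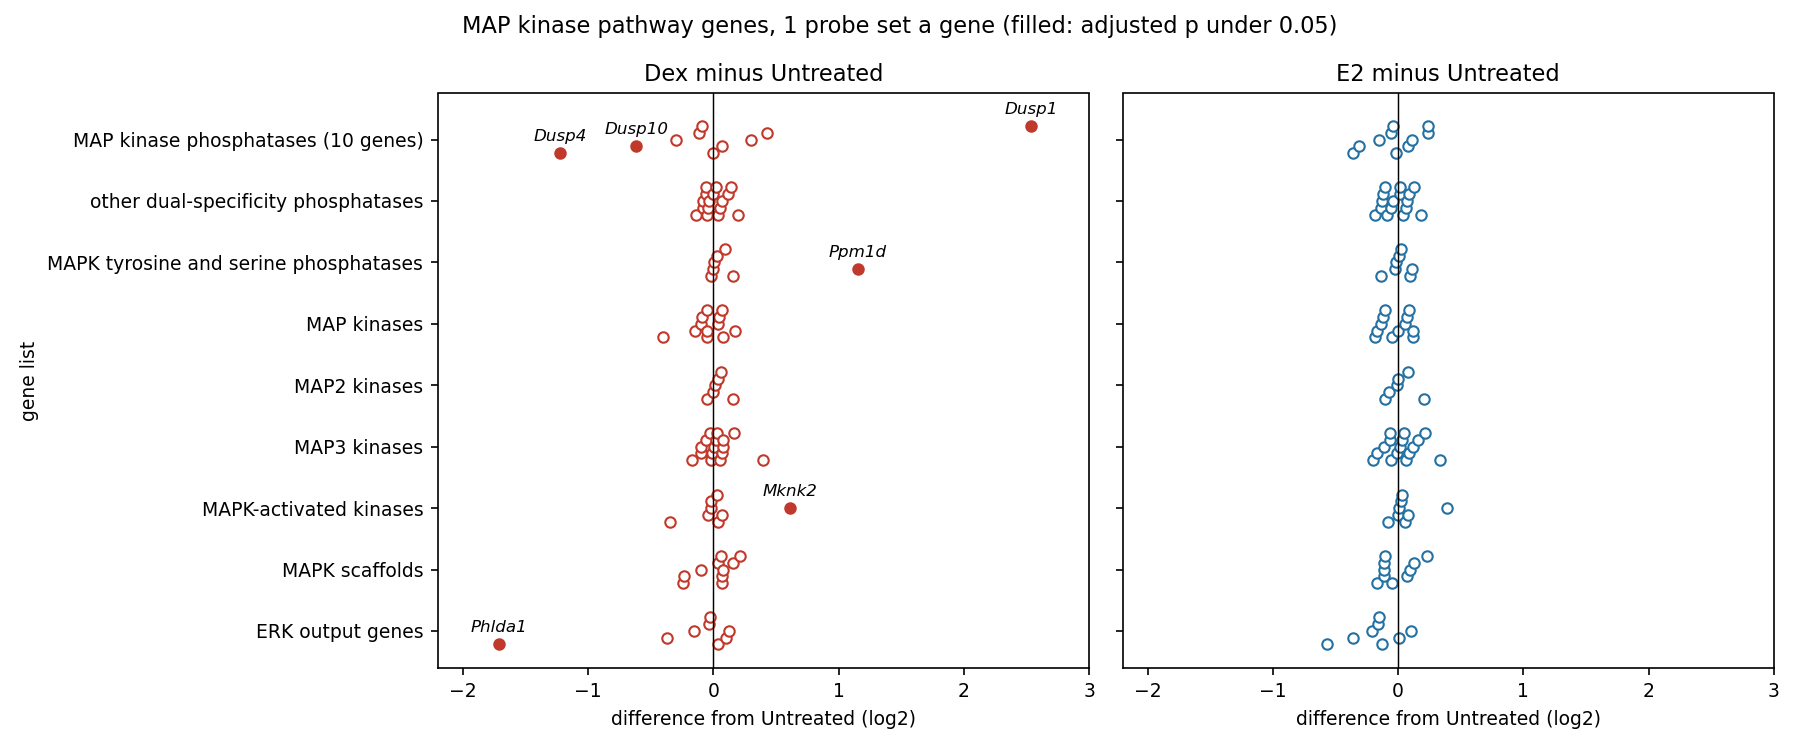
Log2 difference from Untreated (horizontal axis) with Dex (left) and E2 (right) for the 10 phosphatases and the genes of each MAP kinase pathway list (rows), each by its probe set of highest mean, with genes at an adjusted p under 0.05 filled and named. With Dex, Ppm1d, Mknk2 and Phlda1 are filled beside Dusp1, Dusp4 and Dusp10, and with E2 no gene is.

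As hormone controls, the glucocorticoid targets Per1, Tsc22d3 and Fkbp5 passed with Dex at 2.66, 2.82 and 1.62 log2 units and with Dex+E2 at 2.41, 2.26 and 1.30. With the probe sets of a gene averaged, Tsc22d3 had 1.49 with Dex and 1.25 with Dex+E2, and Fkbp5 had 0.95 and 0.67. Per1 also passed with E2 at 1.97, and Tsc22d3 had 0.97 with E2 (adjusted p 0.494) and Fkbp5 0.16. The estrogen targets Greb1 and Pgr had 0.04 and -0.0024 with E2 and did not pass, although Greb1 passed with Dex+E2 where probe sets were averaged (0.57, adjusted p 0.00545). The receptor genes Nr3c1 and Esr1 had -0.47 (0.179) and 0.09 with Dex, 0.02 and -0.08 with E2, and -0.43 (0.238) and 0.20 with Dex+E2. Among the cell type markers, Twist1, a mesenchymal regulator, was the one gene past the threshold against Untreated, with Dex+E2 (-0.47, adjusted p 0.0426), a call lost in 10 of 16 alternative fits, among them those without any 1 array other than Dex+E2 replicate 1 (adjusted p 0.072 to 0.399). What these markers contribute to the phosphatase values was not tested.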

How the data were processed

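Affymetrix mouse arrays measured total RNA in 8 samples. The authors deposited log2 values, made with RMA in Affymetrix Expression Console per the submitters' processing notes, which give no version. RMA removes background, gives all arrays one distribution and combines probes, which compresses differences of dim probe sets and makes levels comparable only within a probe set. Of 45101 probe sets, 64 controls were left out. Names came from the platform annotation, in which 34945 probe sets have 1 symbol, 932 several and 9160 none; 34741 matched RefSeq (GRCm38.p6) by Entrez number and 0 symbols changed. No probe set with several symbols names a member.

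Groups and replicate numbers came from titles. The log2 values were fitted with limma 3.58.1 under R 4.3.3, with a mean for each of 4 groups, 4 residual and 6.29 prior degrees of freedom, and p-values were Benjamini-Hochberg adjusted over 45037 probe sets with a threshold of 0.05. The median SE of a difference was 0.102, and precision is limited by there being 2 arrays a group. Alternatives changed the prior, the dim filter, centring, the choice of probe set, the arrays fitted and the replicate block, and left out each array. The fit was also run on simulated data, and the outcome is not reported here.

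The members and lists were chosen with earlier results of these data known. Named genes are all members with every probe set, up to 4 genes past the threshold against Untreated from each list, 7 hormone controls and the 3 most alike genes.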

Additional observations from a re-analysis of the deposited data

How the results depend on the processing

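Against Untreated, the calls of Dusp1 and Dusp4 held in all 16 alternatives, with Dex differences of 2.38 to 2.70 for Dusp1 and -1.25 to -1.19 for Dusp4. Over the member results that passed, 247 of 278 repeats kept the call, 31 lost it and 0 turned direction. The fits with 1 value a gene (the probe set of highest mean, or the average) hold no value for Dusp8 1418714_at. They are therefore not among its repeats, and with its probe sets averaged Dusp8 did not pass. Fits without 1 array gave 2 to 4 member genes past the threshold with Dex, 2 to 4 with Dex+E2, 2 to 4 for Dex+E2 against E2, 2 to 4 for E2 against Dex, and 0 to 1 for the mean E2 effect. With only the groups compared, Dex+E2 against E2 gave 1. Dusp10 lost its Dex+E2 call there (adjusted p 0.0696) and with probe sets averaged (0.0799). Dusp14, read by 1 probe set, passed with Dex+E2 in 1 of 16 alternatives, the fit with 1 averaged value a gene (adjusted p 0.0417). Its difference there was the same as in the reported fit, -0.47. Without 1 array that difference lay between -0.58 and -0.36. Nr3c1 passed with Dex at the same difference in 4 alternatives (adjusted p 0.0307 to 0.0401) and with Dex+E2 in 2, Tsc22d3 passed with E2 in 3, Phlda1 passed with E2 under the trended prior (0.0311), and Greb1 passed with Dex+E2 with probe sets averaged (0.57, 0.00545). Deviations of same-numbered arrays from their group means correlated at 0.16 to 0.312 between pairs of the Dex, E2 and Untreated groups and at -0.248 to -0.105 between Dex+E2 and each of these, so the numbers are not taken to pair the samples. With the replicate block, E2 against Dex gave 2 member genes in place of 4, since Dusp6 (0.0559) and Dusp10 (0.0801) were lost, Mknk2 lost its Dex call (0.0512) and Twist1 its Dex+E2 call (0.082), and no other member call changed.

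Counts over all probe sets moved further. With Dex they were 416, and 170 to 498 without 1 array. With E2 they were 16, and 3 to 37 without 1 array or 46 with the trended prior. With Dex+E2 they were 380, 169 to 1436 without 1 array, 222 with only the groups compared and 1648 without both arrays whose description names another experiment. Dex+E2 against Dex gave 3, and 0 to 168 without 1 array. Dex+E2 against E2 gave 151, 30 to 1974 without 1 array and 16 with only the groups compared. E2 against Dex gave 304, and 72 to 404 without 1 array. The interaction gave 1, and 0 to 29, the mean Dex effect 618, and 349 to 1666, and the mean E2 effect 24, and 3 to 71, each without 1 array. One value a gene gave 267 with Dex, from fewer features tested. The cause of the other shifts was not tested.

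Every difference whose sign turned was short of the threshold in the reported fit and in the fit that turned it. Over the fits without 1 array, the range with Dex was -0.0090 to 0.15 for Dusp16 1418401_a_at, -0.20 to 0.0019 for Dusp16 1440615_at, -0.099 to 0.097 for Dusp2, -0.29 to 0.062 for Dusp8 1428864_at, -0.0083 to 0.19 for Esr1 and -0.16 to 0.12 for Greb1. The range with E2 was -0.051 to 0.090 for Dusp10 1417163_at, -0.11 to 0.095 for Dusp16 1440615_at, -0.12 to 0.079 for Dusp2, -0.035 to 0.19 for Dusp5, -0.079 to 0.16 for Dusp7 1460393_a_at, -0.23 to 0.12 for Dusp8 1428864_at, -0.072 to 0.054 for Dusp8 1447346_s_at, -0.33 to 0.17 for Esr1, -0.040 to 0.11 for Greb1, -0.0070 to 0.045 for Nr3c1 and -0.15 to 0.14 for Pgr. The range with Dex+E2 was -0.077 to 0.010 for Dusp10 1417163_at, -0.059 to 0.066 for Dusp16 1418401_a_at, -0.14 to 0.056 for Dusp2, -0.058 to 0.12 for Dusp5, -0.27 to 0.065 for Dusp6, -0.028 to 0.21 for Dusp7 1460393_a_at and -0.26 to 0.097 for Dusp8 1428864_at. The range in the interaction was -0.022 to 0.12 for Dusp10 1417163_at, -0.19 to 0.012 for Dusp16 1440615_at, -0.12 to 0.075 for Dusp2, -0.072 to 0.15 for Dusp5, -0.19 to 0.050 for Dusp7 1460393_a_at, -0.12 to 0.27 for Dusp8 1418714_at, -0.087 to 0.27 for Dusp8 1428864_at and -0.12 to 0.075 for Dusp8 1447346_s_at.

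With the probe sets of a gene averaged, the difference with Dex was -0.015 for Dusp16 1418401_a_at and 0.33 for Greb1. There, the difference with Dex+E2 was -0.096 for Dusp16 1418401_a_at. With arrays centred on their medians, the difference with E2 was 0.0045 for Dusp2, 0.014 for Dusp8 1447346_s_at, 0.016 for Dusp16 1440615_at and 0.021 for Pgr. There, the difference with Dex+E2 was -0.0082 for Dusp16 1418401_a_at. Without both arrays whose description names another experiment, a fit chosen after seeing the data, the difference with E2 was 0.050 for Dusp2, -0.035 for Dusp5, -0.026 for Dusp7 1460393_a_at, 0.074 for Dusp8 1428864_at, 0.010 for Dusp8 1447346_s_at, 0.015 for Dusp16 1440615_at, -0.0066 for Greb1, 0.14 for Pgr and -0.0070 for Nr3c1. There, the difference with Dex+E2 was 0.010 for Dusp10 1417163_at. There, the interaction was -0.24 for Dusp8 1418714_at.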
